A study of Arabidopsis thaliana with 16 samples.

Results

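The genes described here are 10 members of 2 families that set the amount of the plant hormone cytokinin in *Arabidopsis thaliana* seeds. They are 6 isopentenyltransferase genes, *IPT1* (AT1G68460), *IPT3* (AT3G63110), *IPT4* (AT4G24650), *IPT5* (AT5G19040), *IPT7* (AT3G23630) and *IPT8* (AT3G19160), and 4 cytokinin oxidase genes, *CKX3* (AT5G56970), *CKX4* (AT4G29740), *CKX6* (AT3G63440) and *CKX7* (AT5G21482). They were picked by gene ID from the 27206 genes of the deposited expression table, and all 10 had a row there. RNA-seq gave transcript levels in whole seeds at 6 days after pollination (DAP), with 2 libraries per cross, each from the seeds of a pool of siliques. The mother in all 3 crosses was the male sterile *pi-1* mutant of the L*er* accession, and the fathers were Col plants that were wild type (wt), *osd1-3*, or *phe1 phe2 osd1-3*. Pollen of *osd1* plants is unreduced, so the seeds of both *osd1* crosses are triploid with an extra paternal genome, whereas wt seeds are diploid. The *phe1 phe2* father carries a premature stop codon in *PHE1*, made with CRISPR/Cas9, and an insertion in *PHE2*, and both lesions enter the seed through the pollen alone. PHE1 (PHERES1), a MADS-box transcription factor of the endosperm, was mapped by ChIP-seq with 2 replicates, in siliques at 2 DAP of a Col line that carries PHE1–GFP under the *PHE1* promoter.

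Cytokinins are adenine derivatives that promote cell division. Isopentenyltransferases of the adenylate type join an isoprenoid side chain to ATP or ADP, the first step of cytokinin synthesis, and cytokinin oxidases cleave that side chain off and so inactivate the hormone. In *Arabidopsis* seeds, cytokinin synthesis is known mainly from the endosperm, the nourishing tissue that surrounds the embryo, and in particular from its chalazal end.

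Expression is given in RPKM, which scales the reads of a gene to its transcript length in kb and to the mapped reads of the library, so that levels of different genes can be compared. From the spacing of the low values, depth was estimated at 16.2 to 18.2 M read pairs per library. Differences were tested on all 20051 genes whose mean reached 0.5 RPKM in 1 cross or more. The 2 tests were limma on log2(RPKM + 0.5), with an adjusted p under 0.05, and the rank product over the 4 pairs of libraries, with an unadjusted permutation p under 0.05. A gene is said to have risen or fallen only where both tests called it in the same direction. *PHE1* itself had 2.92 and 3.10 RPKM in wt, 200 and 169 RPKM in *osd1* and 49.0 and 49.1 RPKM in *phe1 phe2 osd1*. The paper states that the *phe1* allele encodes a truncated protein. RPKM does not separate RNA of that allele from RNA of the intact maternal allele. Whole seeds hold endosperm, embryo and seed coat, and fewer cells of a type cannot be told apart from less RNA per cell. Markers of these tissues also moved with the crosses. The summed RPKM of 6 embryo markers was 226 to 235 in wt and 59.6 to 123 in the triploid libraries, that of 7 endosperm markers was 41.4 to 46.5 in wt and 61.2 to 90.5 in the triploid libraries, and that of 5 seed coat markers was 472 to 603 in wt and 898 to 1051 in the triploid libraries. In *osd1* vs. wt both tests called 2 of 7 endosperm markers higher and 1 lower, 1 of 6 embryo markers lower and 1 of 5 seed coat markers higher, where they called 6.06% of all genes higher and 6.68% lower. By itself limma called 3 endosperm markers higher and 1 lower, 2 embryo markers lower and all 5 seed coat markers higher, where it called 12.6% of all genes higher and 13.4% lower. Of 3 fruit wall markers, *FUL* and *IND* stayed at or below 0.482 RPKM, and *ALC* had 10.6 and 17.6 RPKM in wt and 20.8 to 48.3 RPKM in the triploid libraries (limma adjusted p = 0.0577 in *osd1* vs. wt). The only zeros among these 21 markers were *MINI3* in wt replicate 1 and *IND* in *osd1* replicate 2. *MINI3*, called higher by both tests, reached the mean of 0.5 RPKM only in the triploid crosses, so a difference was built into its passing. The paper lists *MEA*, *ZOU* (*ZHOUPI*), *IKU2*, *MINI3* and *YUC10* as PHE1 targets, so these markers are not independent of PHE1. Single genes weighed heavily in the sums. *LEC1* held 195 and 190 RPKM of the embryo sum in wt. *ZOU* held 32.1 and 35.5 RPKM of the endosperm sum in wt, and *FWA* 40.3 and 27.2 RPKM in *osd1*. The part of tissue composition in the results was not tested.

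In wt seeds the levels of the 10 genes differed widely. *CKX3* was the most abundant of the 10, followed by *CKX6*, and then by *IPT1* and *CKX7*, whose ranges overlapped. *IPT5*, *IPT7* and *IPT3* lay at or below 0.117 RPKM with ranges that overlapped from each to the next, and *IPT4*, *IPT8* and *CKX4* were listed at 0 in both wt libraries. In *osd1* seeds the order was different. *IPT8*, *IPT4* and *CKX6* came first with overlapping ranges, *IPT1* and *CKX7* overlapped below them, and *IPT5*, *IPT7*, *CKX3*, *IPT3* and *CKX4* followed. With *phe1 phe2 osd1* pollen, *CKX6* stood above *IPT8*, whose range overlapped that of *IPT4*, which in turn overlapped that of *IPT1*. There *CKX7*, *CKX3* and *IPT5* overlapped from each to the next, and *IPT7*, *IPT3* and *CKX4* were lowest. *CKX4* was listed at 0 in all 6 libraries, as were 3266 of the 27206 genes of the table.

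**Figure D1:**
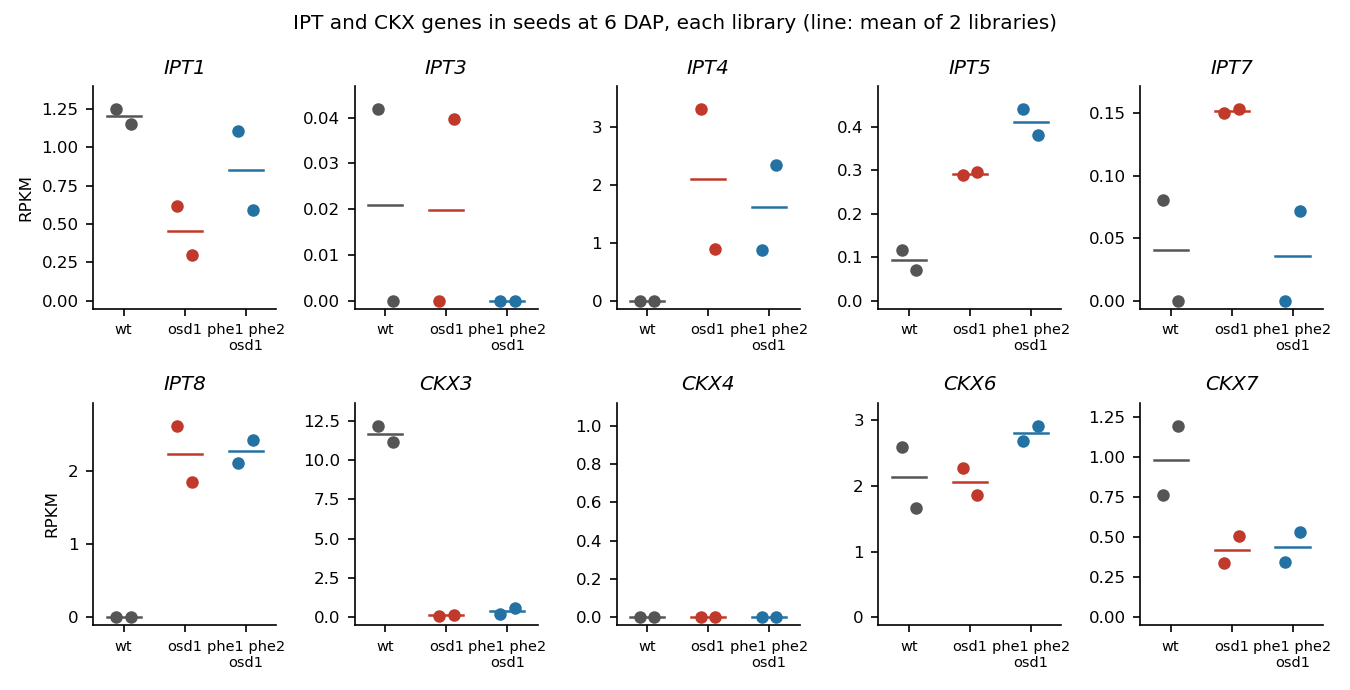
RPKM of each of the 10 genes (vertical axes, linear, each with its own scale) in the 3 crosses, with 1 point per library and a line at the mean of the 2 libraries. *IPT4* and *IPT8* are at 0 in both wt libraries and between 0.883 and 3.30 RPKM in the 4 triploid libraries, and *CKX3* drops from at least 11.1 RPKM in wt to at most 0.618 RPKM.

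Of the 10 genes, 6 passed the filter on low values (*IPT1*, *IPT4*, *IPT8*, *CKX3*, *CKX6* and *CKX7*), and the other 4 were below it in every cross. *IPT4* and *IPT8* passed only through the triploid crosses, and *CKX3* and *CKX7* only through wt. A difference was thus built into their passing, and the counts that follow are a description. In *osd1* vs. wt, limma called 2 of the 6 higher and 1 lower, where 12.6% and 13.4% of all genes tested were called higher and lower. The rank product called 2 higher and 2 lower, where it called 8.54% and 8.63% of all genes. Against wt, *phe1 phe2 osd1* again had 2 called higher and 1 lower by limma, with 12.1% and 12.5% of all genes, and the rank product called 2 higher and 1 lower, with 8.51% and 9.06% of all genes. These comparisons share the wt libraries. Between the triploid crosses, limma called none of the 6 in either direction and 0% of all genes, although 554 genes had an unadjusted p under 0.05, of which none was among the 6. The rank product called 2 of the 6 higher and none lower there, where 4.36% and 4.15% of all genes were called at the unadjusted threshold of 0.05. The median log2 difference of the 6 genes was -0.35 in *osd1* vs. wt and 0.20 in *phe1 phe2 osd1* vs. *osd1*, beside a median of 0.01 over all genes in both.

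*IPT8* rose in both triploid crosses. This gene encodes an adenylate isopentenyltransferase and is on the study's list of paternally expressed genes. Both wt libraries listed it at 0 RPKM, and it had 2.62 and 1.85 RPKM in *osd1* and 2.12 and 2.42 RPKM in *phe1 phe2 osd1*. All 4 triploid libraries lay above both wt libraries, and the 2 triploid crosses overlapped. The triploid values correspond to an estimated 32.8 to 47.7 read pairs per library, and no fold is given against a cross listed at 0. The fitted log2 difference, whose size depends on the pseudocount, was 2.44 in *osd1* vs. wt (SE 0.26, limma adjusted p = 0.0018, rank product permutation p = 0.00025) and 2.47 in *phe1 phe2 osd1* vs. wt (SE 0.26, limma adjusted p = 0.0020, rank product permutation p = 0.00026). Between the triploid crosses it was 0.03 (SE 0.26, limma adjusted p = 1), and without *osd1* replicate 2 or *phe1 phe2 osd1* replicate 2 its sign turned, to -0.18 and -0.05. Where log2(RPKM + 0.5) was ranked, the rank product p of *IPT8* against wt was 0.0082 for *osd1* and 0.0077 for *phe1 phe2 osd1*. Where log2(RPKM + 1) was ranked, it was 0.0155 and 0.0133. *IPT8* lies on the reverse strand of chromosome 3 (TAIR10), from 6621988 to 6623278, with 2 exons in its annotated transcript. No PHE1 peak of either replicate lay within 3000 bp of it, and the nearest region shared by both replicates began 62368 bp away. Its 250 bp upstream are shown because they are the start region of a gene that rose without a PHE1 peak nearby. They hold no exact CArG-box, the A/T-rich motif that MADS-box factors bind, on either strand (the box is its own reverse complement). Capitals mark the only stretch that differs from it at 1 position, which starts at base 97.

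*IPT8*, 250 bp upstream, chr3:6623279-6623528, reverse strand: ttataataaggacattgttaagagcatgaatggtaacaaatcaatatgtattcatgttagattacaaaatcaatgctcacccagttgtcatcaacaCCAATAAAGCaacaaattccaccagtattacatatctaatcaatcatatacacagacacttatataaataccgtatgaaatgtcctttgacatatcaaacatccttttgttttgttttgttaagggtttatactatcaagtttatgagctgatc

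Of the 250 bp upstream of 26719 genes of the table, 2.55% held an exact CArG-box and 34.9% held one or a stretch with 1 difference from it. These matches are a description of letters, not of binding. Only the full CArG-box and stretches with 1 difference from it were searched, here and in the stretches printed below. The paper describes a PHE1 motif B that is such a box, and a motif A without its terminal G bases. The stretches were not searched for motif A.

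*IPT4* also rose in both triploid crosses by both tests, but with a larger spread between libraries and a limma call that depended on the filter and on single libraries. It encodes another adenylate isopentenyltransferase, known from the chalazal endosperm. The wt libraries both listed it at 0 RPKM, and it had 3.30 and 0.886 RPKM in *osd1* and 0.883 and 2.35 RPKM in *phe1 phe2 osd1*. Each triploid cross thus had 1 high and 1 low library, and the crosses overlapped, with an estimated 15.9 to 60.6 read pairs per library. The fitted log2 difference was 2.20 in *osd1* vs. wt (SE 0.57, limma adjusted p = 0.0351, rank product permutation p = 0.00041) and 1.99 in *phe1 phe2 osd1* vs. wt (SE 0.57, limma adjusted p = 0.0494, rank product permutation p = 0.00061). With no filter on low values the limma adjusted p was 0.125 in *osd1* vs. wt and 0.155 in *phe1 phe2 osd1* vs. wt. With the filter, it was 0.188 in *osd1* vs. wt without wt replicate 1, 0.169 without wt replicate 2 and 0.0916 without *osd1* replicate 1. In *phe1 phe2 osd1* vs. wt it was 0.227 and 0.205 without wt replicates 1 and 2, and 0.0666 and 0.209 without *phe1 phe2 osd1* replicates 1 and 2. Between the triploid crosses the difference was -0.21 (SE 0.57, limma adjusted p = 1), and it turned to 0.52 without *osd1* replicate 1 and to 0.31 without *phe1 phe2 osd1* replicate 1. With log2(RPKM + 0.5) ranked, the rank product p against wt was 0.0125 for *osd1* and 0.0146 for *phe1 phe2 osd1*. With log2(RPKM + 1) ranked, it was 0.0242 and 0.0275.

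The tissue markers did not split the triploid libraries in 1 way. The higher *IPT4* values were those of *osd1* replicate 1 and *phe1 phe2 osd1* replicate 2. Of 7 endosperm markers, 3 were higher in these libraries than in the other library of the same cross in both crosses (*MEA*, *MINI3* and *YUC10*), 3 were lower in both (*ZOU*, *FIS2* and *IKU2*), and *FWA* was higher in *osd1* and lower in *phe1 phe2 osd1*. *MINI3*, a WRKY factor gene of the early endosperm, had 9.41 and 4.10 RPKM in *osd1* and 1.94 and 7.83 RPKM in *phe1 phe2 osd1*. *ZOU*, an endosperm transcription factor gene, had 9.41 and 14.2 RPKM in *osd1* and 13.1 and 5.76 RPKM in *phe1 phe2 osd1*. Of 6 embryo markers, *LEC1* and *WOX8* were lower in these libraries in both crosses, *WOX9* was higher in both, and 3 differed between the crosses. Of 5 seed coat markers, 2 were higher in both crosses and 3 differed between the crosses. The part of tissue composition in the spread of *IPT4* was not tested.

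*IPT4* is the only gene of the 10 with a PHE1 peak before its start site, and that peak was called in replicate 2 alone. The gene lies on the forward strand of chromosome 4 from 12720394 to 12721443 with 1 exon. The peak is 259 bp wide, is centred at -240 bp from the transcription start site (TSS), where negative distances lie upstream, overlaps no annotated gene, and has *IPT4* as the nearest TSS. The nearest replicate 1 peak lay 70255 bp away. The deposited peak lists give no height or read count, so the depth behind this peak is unknown. Its sequence is shown because it is the one candidate stretch at a gene that rose. It is 81.5% A or T, and it has no exact CArG-box and no stretch with 1 difference, so it has no capitals.

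*IPT4*, replicate 2 peak, chr4:12720025-12720283, forward strand: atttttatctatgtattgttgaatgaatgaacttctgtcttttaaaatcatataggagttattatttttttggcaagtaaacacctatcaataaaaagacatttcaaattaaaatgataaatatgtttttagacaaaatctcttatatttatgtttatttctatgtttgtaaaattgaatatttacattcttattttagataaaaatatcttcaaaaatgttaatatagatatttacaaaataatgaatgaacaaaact

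Windows of 259 bp centred on the 4858 nuclear replicate 2 peaks held an exact CArG-box in 5.27% of cases, and an exact one or a stretch with 1 difference in 49.4%.

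*IPT1* did not pass both tests in any comparison. It encodes an adenylate isopentenyltransferase known from ovules and other organs. It had 1.25 and 1.15 RPKM in wt, 0.614 and 0.296 RPKM in *osd1*, and 1.11 and 0.592 RPKM in *phe1 phe2 osd1*. Both *osd1* libraries were below both wt libraries, and *phe1 phe2 osd1* replicate 1 was close to wt. The log2 difference in *osd1* vs. wt was -0.85 (SE 0.32, limma adjusted p = 0.105, rank product permutation p = 0.0438). The rank product p was 0.0659, 0.0644 and 0.116 without wt replicate 1, wt replicate 2 and *osd1* replicate 2. Against *osd1*, *phe1 phe2 osd1* differed by 0.49 (SE 0.32, limma adjusted p = 1, rank product permutation p = 0.0330), and the rank product p was 0.167 without *osd1* replicate 2 and 0.151 without *phe1 phe2 osd1* replicate 1. *IPT1* was the isopentenyltransferase gene with the highest level in wt among the 6 described here.

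The other 3 isopentenyltransferase genes were near the limit of detection. *IPT5*, known from roots and other vegetative tissues, had 0.117 and 0.0718 RPKM in wt, 0.288 and 0.295 RPKM in *osd1*, and 0.441 and 0.382 RPKM in *phe1 phe2 osd1*. Its 3 crosses did not overlap, but these values stand for an estimated 2.30 to 13.8 read pairs. With no filter on low values, its limma adjusted p was 0.0277 in *osd1* vs. wt and 0.0168 in *phe1 phe2 osd1* vs. wt, and its rank product permutation p was 0.0631 and 0.0429. *IPT7* had 0.0809 and 0 RPKM in wt, 0.150 and 0.153 RPKM in *osd1*, and 0 and 0.0722 RPKM in *phe1 phe2 osd1*, at most an estimated 4.12 read pairs. With no filter, its rank product permutation p was 0.0254 for a higher level in *osd1* than in wt and 0.0051 for a lower one in *phe1 phe2 osd1* than in *osd1*, and its limma adjusted p was 0.200 and 1. *IPT3*, which is known from the phloem, was above 0 only in wt replicate 1 with 0.0419 RPKM and in *osd1* replicate 2 with 0.0397 RPKM, about 1.13 estimated read pairs each. These *IPT7* calls of 1 test rest on very few read pairs. At this depth a difference in *IPT3* was not detectable.

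*CKX3* fell in both triploid crosses. Its difference cannot be ranked against those of *IPT4* and *IPT8*, whose fitted sizes the pseudocount sets. It encodes a cytokinin oxidase that enters the secretory pathway. It had 12.2 and 11.1 RPKM in wt, 0.107 and 0.146 RPKM in *osd1*, and 0.218 and 0.618 RPKM in *phe1 phe2 osd1*. All triploid libraries were far below wt, and both *phe1 phe2 osd1* libraries were above both *osd1* libraries. The read pairs behind these values were an estimated 356 to 359 in wt, 3.40 to 4.53 in *osd1*, and 6.80 to 20.4 in *phe1 phe2 osd1*. The log2 difference was -4.28 in *osd1* vs. wt (SE 0.29, limma adjusted p = 0.00045, rank product permutation p = 0.0014) and -3.76 in *phe1 phe2 osd1* vs. wt (SE 0.29, limma adjusted p = 0.00075, rank product permutation p = 0.00081). Between the triploid crosses the difference was 0.52 (SE 0.29, limma adjusted p = 1, rank product permutation p = 0.0111). That rank product p was 0.0633 where log2(RPKM + 0.5) was ranked and 0.118 where log2(RPKM + 1) was ranked. *CKX3* lies on the reverse strand of chromosome 5 from 23044839 to 23048292 with 7 exons. No PHE1 peak lay within 3000 bp of it, and the nearest shared region began 5703 bp beyond its 3′ end. Its 250 bp upstream are shown as the start region of the member that fell, and they hold no CArG-box, exact or with 1 difference.

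*CKX3*, 250 bp upstream, chr5:23048293-23048542, reverse strand: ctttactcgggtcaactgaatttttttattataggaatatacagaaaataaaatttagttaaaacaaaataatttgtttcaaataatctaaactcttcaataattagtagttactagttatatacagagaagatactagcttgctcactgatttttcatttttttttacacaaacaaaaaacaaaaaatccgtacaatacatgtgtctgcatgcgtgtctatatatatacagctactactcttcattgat

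*CKX6* and *CKX7* did not pass either test in any comparison, and *CKX4* gave no value to test. *CKX6*, another oxidase of the secretory pathway, had 2.60 and 1.66 RPKM in wt, 2.27 and 1.85 RPKM in *osd1*, and 2.68 and 2.92 RPKM in *phe1 phe2 osd1*. Its *osd1* libraries lay between the wt libraries, and both *phe1 phe2 osd1* libraries were above all others. The log2 difference was -0.02 in *osd1* vs. wt (SE 0.26, limma adjusted p = 0.962), which turned to 0.24 without wt replicate 1 and to 0.10 without *osd1* replicate 2. It was 0.35 in *phe1 phe2 osd1* vs. wt (SE 0.26, limma adjusted p = 0.369). *CKX7*, the oxidase that stays in the cytosol, had 0.763 and 1.19 RPKM in wt, 0.338 and 0.504 RPKM in *osd1*, and 0.345 and 0.533 RPKM in *phe1 phe2 osd1*. It passed the filter only through wt, so a lower level in the triploid crosses was built into its passing. All 4 triploid libraries were below both wt libraries, with a log2 difference of -0.67 in *osd1* vs. wt (SE 0.30, limma adjusted p = 0.155, rank product permutation p = 0.0670) and -0.65 in *phe1 phe2 osd1* vs. wt (SE 0.30, limma adjusted p = 0.174, rank product permutation p = 0.0636). Between the triploid crosses it was 0.03 (SE 0.30, limma adjusted p = 1), and it turned to -0.10 without *osd1* replicate 1 and to -0.12 without *phe1 phe2 osd1* replicate 2.

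**Figure D2:**
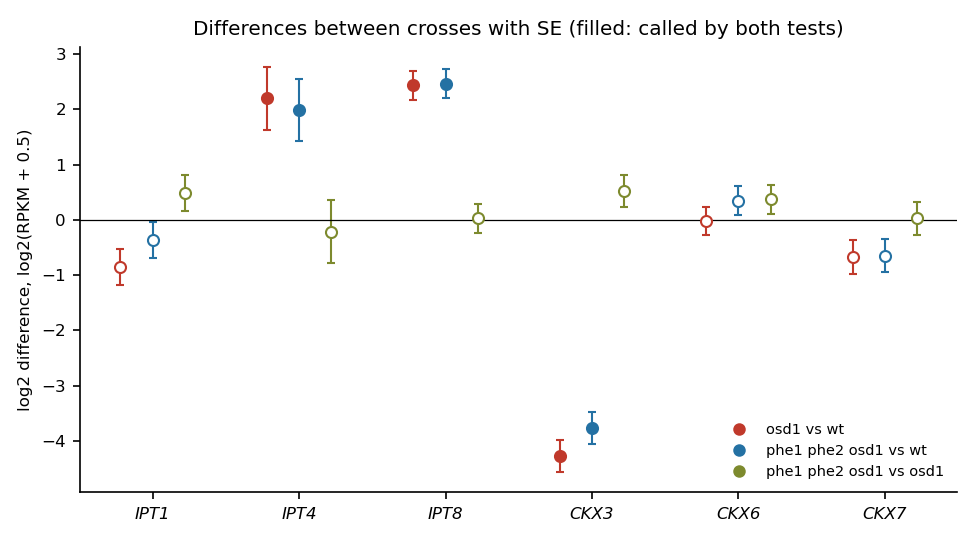
Log2 differences on the log2(RPKM + 0.5) scale (vertical axis) of the 6 genes that passed the filter, with their standard errors from limma, in the 3 comparisons. *IPT4* and *IPT8* lie near 2 or above and *CKX3* at or below -3.76 against wt, whereas no gene is called by both tests between the triploid crosses.

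Each family also had a gene with a large difference that is not among the 10. *CKX2*, a cytokinin oxidase gene known to act in endosperm growth control, rose from 2.06 and 1.66 RPKM in wt to 191 and 65.4 RPKM in *osd1* and to 82.6 and 50.5 RPKM in *phe1 phe2 osd1*. Its log2 difference was 5.58 in *osd1* vs. wt (SE 0.50, limma adjusted p = 0.00093). *IPT6*, an adenylate isopentenyltransferase gene, fell from 7.98 and 10.2 RPKM in wt to 0 and 0 RPKM in *osd1*, and had 0.225 and 1.28 RPKM in *phe1 phe2 osd1*. Its fitted log2 difference was -4.25 in *osd1* vs. wt (SE 0.44, limma adjusted p = 0.0015) and -3.07 in *phe1 phe2 osd1* vs. wt (SE 0.44, limma adjusted p = 0.0053). The latter adjusted p was 0.0621 without wt replicate 1 and 0.0638 without wt replicate 2. Summed over the 7 adenylate isopentenyltransferase genes, RPKM was 9.47 and 11.4 in wt, then 6.98 and 3.52 in the *osd1* cross, and 4.77 and 7.09 in the *phe1 phe2 osd1* cross. Summed over the 6 described here alone it was 1.49 and 1.22 in wt, then again 6.98 and 3.52 in the *osd1* cross, and 4.55 and 5.81 in the *phe1 phe2 osd1* cross. Both *osd1* sums came wholly from these 6 genes, and most of the wt sum came from *IPT6*. For the oxidases, the 4 genes summed to 15.5 and 14.0 RPKM in wt, 2.71 and 2.5 RPKM in *osd1*, and 3.25 and 4.07 RPKM in *phe1 phe2 osd1*. All 7 oxidase genes summed to 24.5 and 21.4 RPKM in wt, 204 and 78.0 RPKM in *osd1*, and 93.2 and 65.3 RPKM in *phe1 phe2 osd1*. Among the 7 adenylate isopentenyltransferase genes, and among the 7 oxidase genes, the gene that led in wt thus differed from the gene or genes that led in the triploid crosses.

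**Figure D3:**
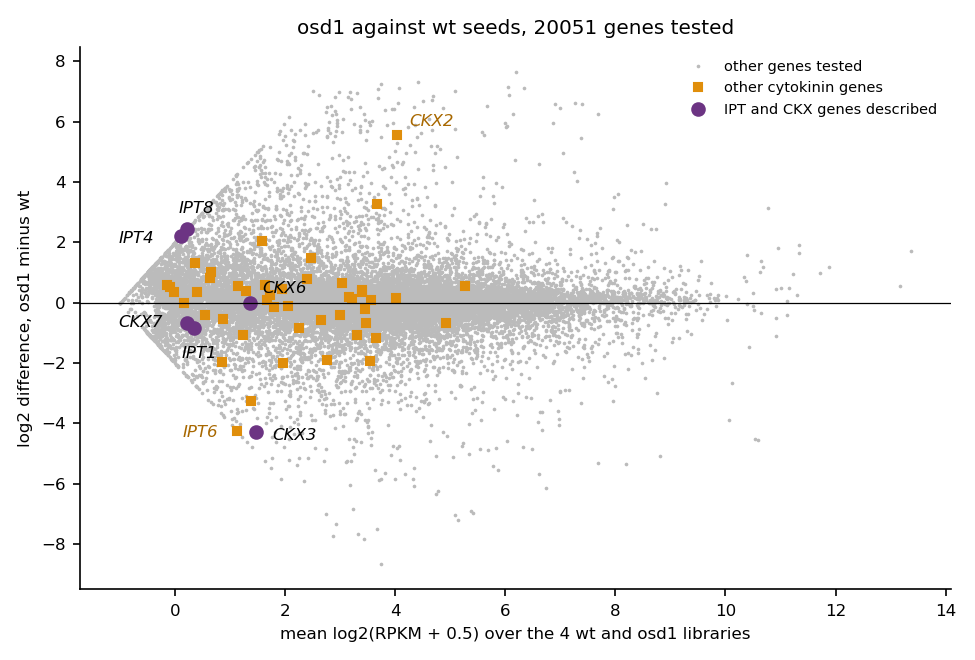
Mean log2(RPKM + 0.5) over the wt and *osd1* libraries (horizontal axis) against the log2 difference of *osd1* minus wt (vertical axis) for the 20051 genes tested, with the 6 genes described in purple and 46 other cytokinin genes in orange. *CKX2* (5.58) lies near the top edge of the cloud, *CKX3* (-4.28) and *IPT6* (-4.25) near its lower edge, and *IPT4* and *IPT8* on the left edge, which genes listed at 0 in wt form.

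The other genes of cytokinin synthesis, transport and response were taken as a list of 58, of which 46 were tested. In *osd1* vs. wt both tests called 4 of the 46 higher and 7 lower, and limma by itself called 5 higher and 10 lower. Over all genes tested, both tests called 6.06% higher and 6.68% lower, and limma by itself 12.6% and 13.4%. None of the 4 *LOG* activation genes, the 2 tRNA isopentenyltransferase genes, the 2 transporter genes and the 5 *AHP* phosphotransfer genes was called by both tests. Among type-B response regulators, which switch on cytokinin target genes, 2 of 9 rose. *ARR19* had 3.66 and 3.51 RPKM in wt and 38.0 and 40.1 RPKM in *osd1* (log2 difference 3.28, SE 0.18, limma adjusted p = 0.00031). *ARR18* had 1.10 and 0.864 RPKM in wt and 6.58 and 4.77 RPKM in *osd1* (log2 difference 2.05, SE 0.26, limma adjusted p = 0.0030). *ARR1*, of the same group, fell by both tests only in *phe1 phe2 osd1* vs. wt, from 13.7 and 13.8 RPKM to 6.18 and 4.39 RPKM, with a limma adjusted p of 0.0071 that was 0.0877 and 0.0761 without wt replicates 1 and 2.

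Of 8 type-A response regulators, which dampen the response, 1 rose and 2 fell in *osd1* vs. wt. *ARR16* passed the filter only through wt and *ARR6* only through the triploid crosses. A difference was thus built into their passing, and the counts that include them are a description. *ARR16* fell from 8.91 and 6.55 RPKM to 0.178 and 0.545 RPKM (log2 difference -3.27, SE 0.32, limma adjusted p = 0.0013). *ARR15* had 1.88 and 4.83 RPKM in wt and 0.366 and 0.468 RPKM in *osd1*, with a limma adjusted p of 0.0179 that was 0.0557 without wt replicate 2 and 0.0509 without *osd1* replicate 1. *ARR6* had 0.126 and 0.581 RPKM in wt and 1.40 and 1.67 RPKM in *osd1*, with a limma adjusted p of 0.0389. Without any single library, those of *phe1 phe2 osd1* included, the *ARR6* value was 0.0504 to 0.186. *AHK4*, a cytokinin receptor, fell from 14.4 and 11.1 RPKM to 3.52 and 2.53 RPKM (log2 difference -1.91, SE 0.24, limma adjusted p = 0.0028, and 0.0510 without wt replicate 1). The other 2 receptor genes tested were not called.

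Among the 6 cytokinin response factor genes, 2 fell in *osd1* vs. wt and the other 4 were not called by both tests. By itself limma called *CRF4* higher, from 3.04 and 2.63 RPKM to 7.57 and 10.3 RPKM (limma adjusted p = 0.0042). *CRF2* fell from 23.8 and 20.8 RPKM to 4.44 and 6.77 RPKM (log2 difference -1.93, SE 0.22, limma adjusted p = 0.0021). *CRF3* fell from 10.2 and 5.17 RPKM to 1.56 and 1.36 RPKM (log2 difference -2.0, SE 0.34, limma adjusted p = 0.0086, and 0.0589 without wt replicate 1). *UGT76C2*, a cytokinin glucosyltransferase gene, fell from 2.99 and 2.80 RPKM to 1.25 and 1.01 RPKM, with a limma adjusted p of 0.0306. That value was 0.166, 0.130, 0.0541 and 0.0894 without wt replicate 1, wt replicate 2, *osd1* replicate 1 and *osd1* replicate 2. Both tests again called 4 of the 46 higher and 7 lower in *phe1 phe2 osd1* vs. wt, beside 5.92% and 6.65% of all genes. Between the triploid crosses limma called none, as for all genes, and the rank product called 2 higher and 3 lower, near its shares of 4.36% and 4.15% of all genes.

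**Figure D4:**
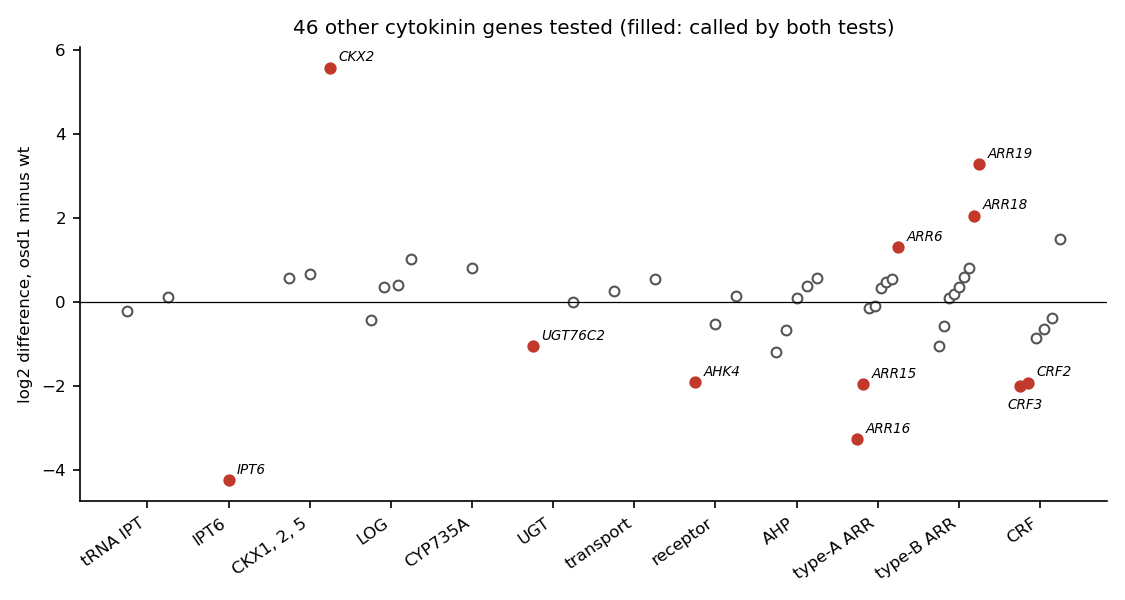
Log2 differences of *osd1* minus wt (vertical axis) of the 46 other cytokinin genes tested, by role in the pathway, with genes called by both tests filled and named. The filled points are 4 above 0, among them *CKX2* at 5.58 and *ARR19* at 3.28, and 7 below 0, among them *IPT6* at -4.25 and *ARR16* at -3.27.

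The genes whose pattern over the 6 libraries was most like that of *IPT8* and *CKX3* are given as a description. For *IPT8* they were AT5G21130, AT3G47030 and AT1G04880, each with a Pearson correlation of log2(RPKM + 0.5) of at least 0.999 over 6 libraries. AT5G21130 also had 0 RPKM in either wt library, and it had 3.0 and 1.97 RPKM in *osd1* and 2.25 and 2.61 RPKM in *phe1 phe2 osd1*. For *CKX3* they were AT5G40700, AT5G53090 and AT3G03620, each also with a correlation of at least 0.999. AT5G53090 had 25.1 and 24.2 RPKM in wt, 1.87 and 2.13 RPKM in *osd1*, and 2.48 and 3.35 RPKM in *phe1 phe2 osd1*. With only 3 crosses such values are common, and 242 genes correlated above 0.99 with *IPT8* and 239 with *CKX3*.

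None of the 10 genes had a PHE1 binding site, taken as a region shared by the peaks of both replicates and centred from 1500 bp upstream to 500 bp downstream of the TSS. Of the 26719 annotated genes of the table, 7.66% had such a site, so 0 of 10 is near that background. With the replicate 2 peaks alone, 1 of the 10 had a peak in that window, *IPT4*, against 14.8% of all genes. The lists held 2818 nuclear peaks in replicate 1 and 4858 in replicate 2, with 2510 shared regions. The paper reports fewer peaks for the replicate with the longer list, and fewer shared regions. Whether the peak at *IPT4*, called in replicate 2 alone, is in that smaller set was not tested.

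Peaks outside that window lay within 3000 bp of 3 further genes, each on the downstream side. The shared region by *IPT7*, 191 bp wide, began 1311 bp beyond the 3′ end of the gene, and its nearest TSS was that of the long noncoding RNA gene AT3G04575, with its centre at -397 bp from it. At *IPT3* an 839 bp peak of replicate 2 alone overlapped the 3′ end of the gene. At *CKX4* a 253 bp peak of replicate 1 alone overlapped the 3′ end, centred at -243 bp from the TSS of the neighbouring gene AT4G29750. AT4G29750 had 6.62 to 11.5 RPKM over the 6 libraries, whereas *CKX4* was listed at 0 in each. No peak of either replicate lay within 3000 bp of *IPT1*, *IPT5*, *IPT8*, *CKX3*, *CKX6* or *CKX7*. The region by *IPT7* is printed because it is the only one near the 10 genes that both replicates called. It has no CArG-box, exact or with 1 difference, where 7.05% of windows of 191 bp centred on shared regions held an exact one and 48.3% an exact one or a stretch with 1 difference.

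*IPT7*, shared region downstream, chr3:8491577-8491767, forward strand: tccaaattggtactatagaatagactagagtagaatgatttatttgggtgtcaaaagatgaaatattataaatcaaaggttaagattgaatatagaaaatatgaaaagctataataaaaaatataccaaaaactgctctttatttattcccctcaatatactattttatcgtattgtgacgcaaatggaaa

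The sequences are those of the TAIR10.1 assembly of RefSeq, whose nuclear chromosomes have the coordinates of TAIR10. ChIP-seq was done at 2 DAP in Col siliques and RNA-seq at 6 DAP in seeds of L*er* mothers, so binding and transcripts were not measured in the same seeds.

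**Figure D5:**
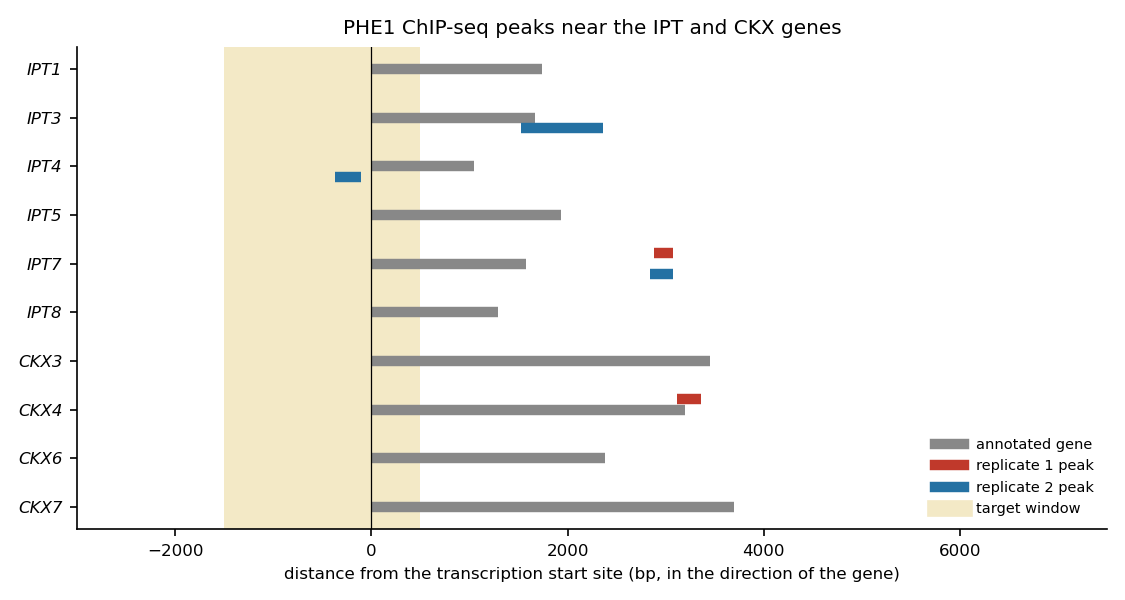
Peaks of replicate 1 (red) and replicate 2 (blue) by distance in bp from the TSS (horizontal axis) of each of the 10 genes, whose annotated length is grey, with the window that defines targets shaded. The only peak in the window is the replicate 2 peak at *IPT4*, centred at -240 bp, and the only place where both replicates have a peak is downstream of *IPT7*.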

How the data were processed

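The authors mapped the RNA-seq reads of the 6 seed libraries to TAIR10 with TopHat2 2.1.0 and deposited RPKM computed with GFOLD, with no counts. RPKM scales by mapped reads and transcript length, and L*er* and Col alleles were not separated. For ChIP-seq the authors used Bowtie 1.2.2 and MACS2 2.1.1 for each replicate against its input. The peak lists they deposited give positions and no signal or score. All 6 RPKM columns were used, and sample columns belonging to no sample numbered 0. The H3K27me3, H3 and input samples of endosperm were not analysed here.

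The genes and lists were chosen with earlier results of these data known. The tests covered 20051 of 27206 genes, those whose mean reached 0.5 RPKM in 1 cross or more. limma 3.58.1 (R 4.3.3, eBayes with a trend) was fitted to log2(RPKM + 0.5) over all 3 crosses, with Benjamini-Hochberg adjustment. Differences on this scale understate the change of low genes. The rank product, the test of the study, was coded in Python 3.11.15 with zeros set to 0.0001, 100 permutations and one-sided p-values. The minimum of reads used in the study was replaced by the minimum RPKM. Libraries are described as biological replicates, so limma p-values cover the spread between 2 seed pools per cross, taken over all 3 crosses. The rank product p-value sets a gene against permuted values of all genes tested, and does not measure that spread. No exact permutation test was run on single genes, since 2 libraries against 2 cannot give a two-sided p below 0.3333. Depth came from the spacing of low RPKM values: 37.1 to 39.3% were whole numbers of reads within 0.05, and 91.7 to 94.1% of these were even, so the unit is a read pair. Estimated read pairs use RefSeq transcript lengths and are approximate. The limma fit and the rank product were tested on simulated data, and the assignment of peaks and the motif search on planted peaks and a planted motif.

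The rule for named genes took all 10 members with every value, the other pathway genes called by both tests in the same direction in any comparison, at most 3 per role, and the 3 genes most correlated with the isopentenyltransferase gene and the oxidase gene of largest difference. *MINI3*, *ZOU* and the genes next to peaks were named after their values were seen. Alternatives tried cover the pseudocount, the filter, scaling, the samples fitted, the replicate number as a block, eBayes without a trend, each library left out, how zeros are ranked, adjustment of the rank product, and the overlap, window and replicate behind a binding site.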

Additional observations from a re-analysis of the deposited data

How the results depend on the processing

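*IPT8* and *CKX3* kept their direction and their limma call against wt under all 14 alternatives, in both triploid crosses. *IPT4* kept its direction but was past the threshold in 8 of 14 alternatives in *osd1* vs. wt and in 4 of 14 in *phe1 phe2 osd1* vs. wt, and the cause was not tested. The limma count of genes called higher was 1 in place of 2 with pseudocount 1 in both comparisons with wt, and also, in *phe1 phe2 osd1* vs. wt, with a filter at 1 RPKM, with libraries scaled to the median ratio and with eBayes without a trend. With no filter it stayed at 2, but by *IPT5* in place of *IPT4*. With the replicate block the limma count of higher genes was 1 in both comparisons with wt (*IPT4*, adjusted p = 0.0589 and 0.0773). The numbers do not pair the samples: same-numbered libraries had deviations that correlated at -0.004 (wt and *osd1*), -0.01 (wt and *phe1 phe2 osd1*) and 0.17 (*osd1* and *phe1 phe2 osd1*). The rank product counts did not move with same-numbered pairs.

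For the rank product, ranking log2(RPKM + 0.5) or log2(RPKM + 1), or no filter, left 1 lower gene in *osd1* vs. wt in place of 2. In *phe1 phe2 osd1* vs. *osd1* they left 1, 0 and 1 higher genes in place of 2, and with no filter 1 was lower (*IPT7*) in place of 0. With no filter the rank product also called 3 genes higher in place of 2 in both comparisons with wt, by *IPT7* in *osd1* vs. wt and *IPT5* in *phe1 phe2 osd1* vs. wt. With Benjamini-Hochberg adjustment the rank product called 0 of the 10 in any comparison. Leaving out each library gave 1 to 2 genes for limma higher in both comparisons with wt, for the rank product lower in *osd1* vs. wt and higher in *phe1 phe2 osd1* vs. *osd1*, and 0 to 1 for lower there (*IPT4* without *osd1* replicate 2). Signs turned only when a library was left out, for differences that were not called. In *phe1 phe2 osd1* vs. *osd1* these ranged from -0.94 to 0.52 for *IPT4*, -0.18 to 0.24 for *IPT8*, -0.12 to 0.17 for *CKX7*, -0.35 to 0.14 for *ARR19* and -0.16 to 0.47 for *ARR16*, and in *osd1* vs. wt from -0.28 to 0.24 for *CKX6*. The count of genes with a PHE1 site was 1 with the replicate 2 peaks alone (*IPT4*), 1 within 3000 bp on either side of the gene (*IPT7*), and 0 otherwise. Where a cross was left with 1 library, that library was assumed to vary like those of the other crosses. With 2 libraries per cross and few reads for most of these genes, a call that misses the threshold does not show that crosses do not differ.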

Other observations

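PHE1 binding sites were found at 11 of the 58 other cytokinin genes, beside 7.66% of all genes of the table. They were 5 of the 6 cytokinin response factor genes (*CRF2*, *CRF3*, *CRF4*, *CRF5* and *CRF6*), 4 of the 11 type-B response regulator genes (*ARR1*, *ARR10*, *ARR12* and *ARR18*), the type-A gene *ARR17* and the hydroxylase gene *CYP735A1*. The sites were centred at -120 bp from the TSS of *CRF2*, -591 bp from that of *CRF3*, -342 bp from that of *ARR1* and -317 bp from that of *ARR18*, where negative distances lie upstream. The sites counted for *CRF5*, *CRF6* and *ARR17* had the TSS of another gene as the nearest. *CKX2* and *IPT6* had none, nor had the *LOG* genes or the receptors. With the replicate 2 peaks alone, *CRF1*, *AHK3*, *AHK4* and *ARR19* were among 17 genes with a peak, against 14.8% of all genes. The list was chosen with earlier results known, and no test was run on these counts.

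The genes with sites did not move as 1 group. In *osd1* vs. wt, *CRF2* and *CRF3* fell and *ARR18* rose, where both tests called 6.06% of all genes higher and 6.68% lower. By itself limma also called *CRF4* higher (log2 difference 1.49, limma adjusted p = 0.0042) and *ARR1* lower (-1.06, limma adjusted p = 0.0144). Its shares of all genes were 12.6% higher and 13.4% lower. *ARR17* was not tested, and the other genes with sites were called by neither test. *ARR18* was also called lower by the rank product in *phe1 phe2 osd1* vs. *osd1*, with 3.87 and 2.85 RPKM against 6.58 and 4.77 RPKM (rank product permutation p = 0.0322, limma adjusted p = 1). The rank product called 4.15% of all genes lower there. It called cytokinin genes without a site there too. *CKX1* and *CKX2* were lower (rank product permutation p = 0.0379 and 0.0476), and *IPT6* and *CRF1* were higher (rank product permutation p = 4.6e-05 and 0.0367). By limma none of them was called. *CKX1* passed the filter only through *osd1*, with 1.22 and 0.207 RPKM in replicates 1 and 2, so a lower level was built into its passing. For *IPT6*, both *osd1* libraries were listed at 0 RPKM, which the rank product set to 0.0001.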
